A study of Mus musculus with 6 samples.

Results

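Neat1, Malat1 and 6 genes for paraspeckle proteins (Sfpq, Nono, Pspc1, Hnrnpk, Tardbp and Rbm14) were taken by symbol from the count table, and all 8 were found among its 27179 identifiers and passed the filter on low counts. The genes were chosen by their known roles together with their counts in the R783H against WT comparison, so their own differences in it are a description, without a test. Both groups are mouse embryonic stem cells (ES-E14TG2a background) that carry FLAG-tagged Trim71 and were grown in 2i medium with LIF. The WT group carries the wild-type residue and the R783H group carries the R783H change in Trim71, which binds mRNAs through its NHL domain, and each group has 3 libraries of poly(A)-selected RNA, A to C. Whether A to C are clones, cultures or library preparations, and whether a group holds more than 1 clone, is not given in the labels, so the spread between libraries may be technical.

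Paraspeckles are nuclear bodies built on the long isoform of the non-coding RNA Neat1. The DBHS family proteins Sfpq, Nono and Pspc1 coat this RNA, and other RNA-binding proteins shape the body or decide which Neat1 isoform is made. Malat1 is a neighbouring nuclear RNA that gathers in nuclear speckles, where splicing factors concentrate. Embryonic stem cells are known for making mostly the short, polyadenylated Neat1 isoform, with the long isoform and paraspeckles appearing on differentiation.

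The 3′ ends of these RNAs are shown first because the libraries were selected for poly(A). Malat1 and the long Neat1 isoform are cut by RNase P and carry no added tail. Instead, U-rich stretches and an A-rich stretch fold into a triple helix that protects the end. Not every U-rich stretch is marked in the sequences below. The short Neat1 isoform is cleaved after a polyadenylation signal and receives a tail. The sequences below run 5′ to 3′ on the minus strand of GRCm38 (mm10), from GENCODE M21 transcripts, with T for U. Malat1 is shown at chr19:5795921-5796071, the long Neat1 isoform at chr19:5824708-5824797 and the short one at chr19:5842307-5842366. Capitals mark TTTTGCTTTT and AAAAGCAAAA, which are reverse complements of each other, in the first pair, and AATAAA, the polyadenylation signal, in the last.
Malat1: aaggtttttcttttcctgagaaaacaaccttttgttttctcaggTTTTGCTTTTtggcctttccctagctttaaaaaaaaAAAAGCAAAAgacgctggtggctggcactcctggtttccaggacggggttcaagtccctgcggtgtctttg
Neat1 long isoform: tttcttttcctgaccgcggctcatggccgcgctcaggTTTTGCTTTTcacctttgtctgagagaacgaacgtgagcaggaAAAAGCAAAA
Neat1 short isoform: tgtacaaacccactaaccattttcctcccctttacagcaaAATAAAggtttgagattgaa

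AAAAGCAAAA was taken as the last 10 bases of the annotated long Neat1 isoform (20771 bases), which therefore ends on it by definition. TTTTGCTTTT was taken as its reverse complement. The annotated Malat1 transcript (6983 bases) runs 292 bases past AAAAGCAAAA, through the tRNA-like stretch that RNase P releases. The longest run of A in Malat1 is 12 bases, which takes in the first A bases of the capitals, and the longest in the long Neat1 isoform is 7 bases. TTTTGCTTTT was found in 1.374% and AAAAGCAAAA in 1.427% of the longest transcripts of 55450 annotated genes, searched on the transcript strand only. TTTTGCTTTT followed within 100 bases by AAAAGCAAAA was found in 2 of them (0.0036%), Malat1 and Neat1. Since AAAAGCAAAA was taken from Neat1, its presence there was fixed beforehand, and this search is a description only. The short isoform ends at base 3172 of the long one, which continues for 17599 bases. The table gives 1 count per gene, so reads of the Neat1 isoforms cannot be told apart here.

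Total counts ran from 20894277 to 29079670 per library, and the shallowest R783H library had more than the deepest WT one. R783H B stood furthest from its group, with a chi-square statistic per degree of freedom of 11.3 against A and 12.4 against C, where A and C were at 2.19. Against the WT libraries R783H B was at 75.6 to 78.0, and R783H A and C were at 83.5 to 93.0. Some results, though not all, are therefore also given without R783H B. Trim71 mRNA stood at 151.7, 129.0 and 150.5 CPM in R783H A, B and C and at 130.8, 131.2 and 159.4 CPM in WT A, B and C, so the groups overlapped; gene counts do not show the R783H residue itself. CPM is the count relative to the TMM-scaled library total, except in sums over marker lists, which use the library total without TMM. All 10 markers of embryonic stem cells were measured, with an unscaled sum of 7080 to 7273 CPM (R783H) and 6940 to 7074 CPM (WT). The TMM factors were 1.02 to 1.03 in R783H and 0.967 to 0.975 in WT. Scaling would therefore lower the R783H sums and raise the WT ones, and no direction is read from this sum. A gene is called where its adjusted p is below 0.05 (edgeR's quasi-likelihood test, Benjamini-Hochberg adjustment). Of the 10 stem cell markers 3 were called higher and 3 lower, with log2 fold changes (R783H over WT) from -0.36 for Zfp42 to 0.31 for Fgf4. That is a share of 60% called, against 64.5% of all tested genes (33.5% higher and 30.9% lower). Of 8 markers of feeder fibroblasts 3 were tested, and Twist2 had 0 counts in every library. The sum, again without TMM, was 2.23 to 3.23 CPM (R783H) and 3.20 to 3.73 CPM (WT).

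Neat1 and Malat1 were both higher in R783H, Neat1 far more so. Neat1 (Entrez 66961, chr19:5824708-5845480) was counted 4824, 3196 and 4273 times in R783H A, B and C and 608, 825 and 705 times in WT A, B and C. Scaled, that is 160.5, 112.6 and 144.3 CPM against 30.1, 33.6 and 33.0 CPM. The lowest R783H library thus lay well above the highest WT library. The R783H mean was 139.1 ± 24.3 CPM and the WT mean 32.3 ± 1.89 CPM (SD, n = 3 each), a log2 fold change of 2.11 (SE 0.11), or 4.31-fold. Without R783H B the log2 fold change was 2.21. In bulk RNA, a change in the number of cells that make an RNA and a change in its level per cell cannot be told apart.

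Malat1 (Entrez 72289, chr19:5795690-5802672) stood at 175.0, 118.7 and 151.0 CPM in R783H A, B and C and at 103.9, 112.5 and 111.6 CPM in WT A, B and C. R783H B came close to WT B, and the groups did not overlap. The means were 148.2 ± 28.2 and 109.3 ± 4.77 CPM (SD, n = 3 each), a log2 fold change of 0.44 (SE 0.11). Single libraries carried weight here: the value was 0.29 without R783H A and 0.55 without R783H B.

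**Figure D1:**
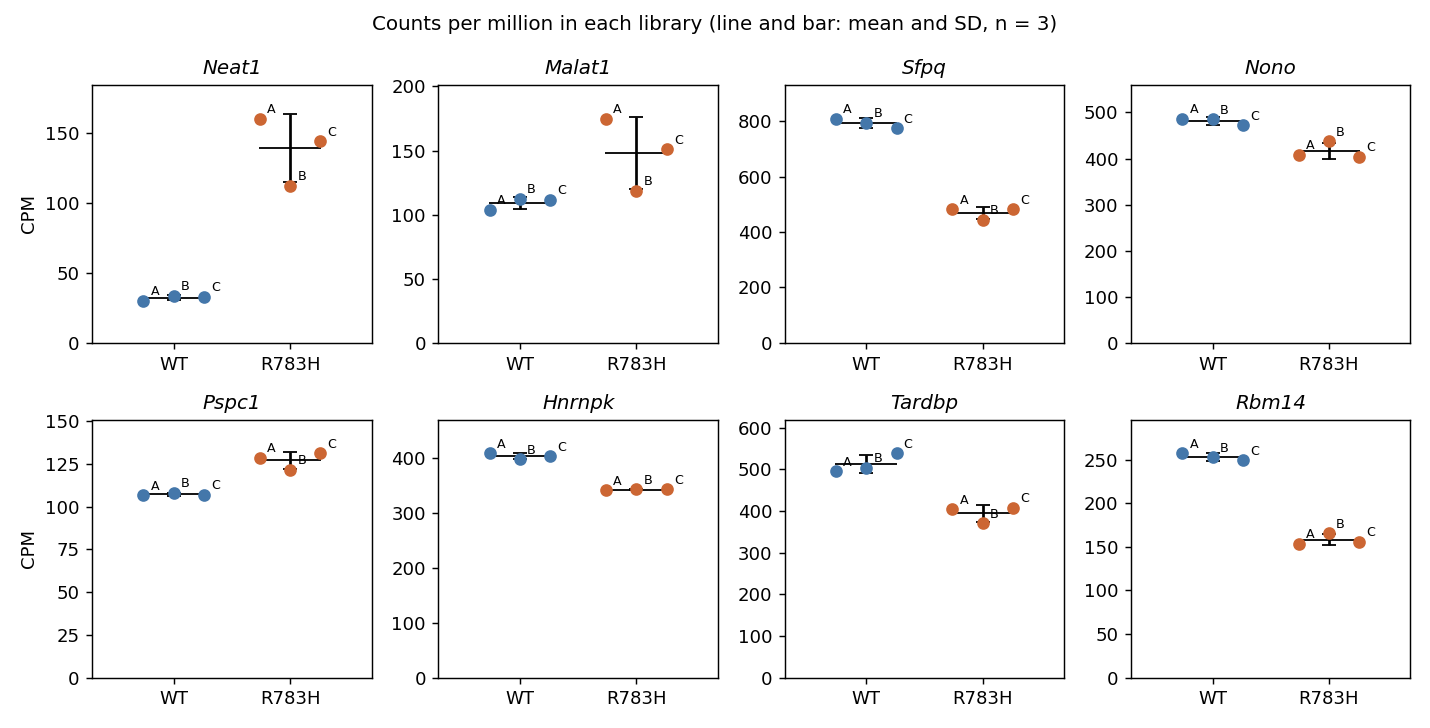
Each panel plots CPM on a linear axis from 0 for the 3 WT and 3 R783H libraries (letters A to C), with the mean and SD. Neat1 sits at 112.6 to 160.5 CPM in R783H against 30.1 to 33.6 CPM in WT, and Sfpq and Rbm14 show the widest gaps in the other direction.

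Neat1 and Malat1 moved together among the R783H libraries, both highest in A and lowest in B. The number of Neat1 counts per Malat1 count was 0.917, 0.949 and 0.955 in R783H A, B and C, and 0.290, 0.299 and 0.296 in WT A, B and C. This ratio uses no scaling between libraries. It averaged 0.941 ± 0.0204 in R783H and 0.295 ± 0.00465 in WT (SD, n = 3 each), 3.19 times apart, and it was far more even within R783H than either RNA alone. The coefficient of variation within R783H was 17.5% for Neat1 and 19.1% for Malat1, against a median of 4.74% over the 4275 genes of at least 50 CPM in both groups. Those values lay at percentiles 99.8 and 99.98 of these genes. In WT they were 5.87% and 4.36%, at percentiles 89.0 and 74.3, with a median of 3.00% over all those genes. Neat1, at a mean of 32.3 CPM in WT, is itself below that limit, so its WT percentile sets it against better-counted genes.

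**Figure D2:**
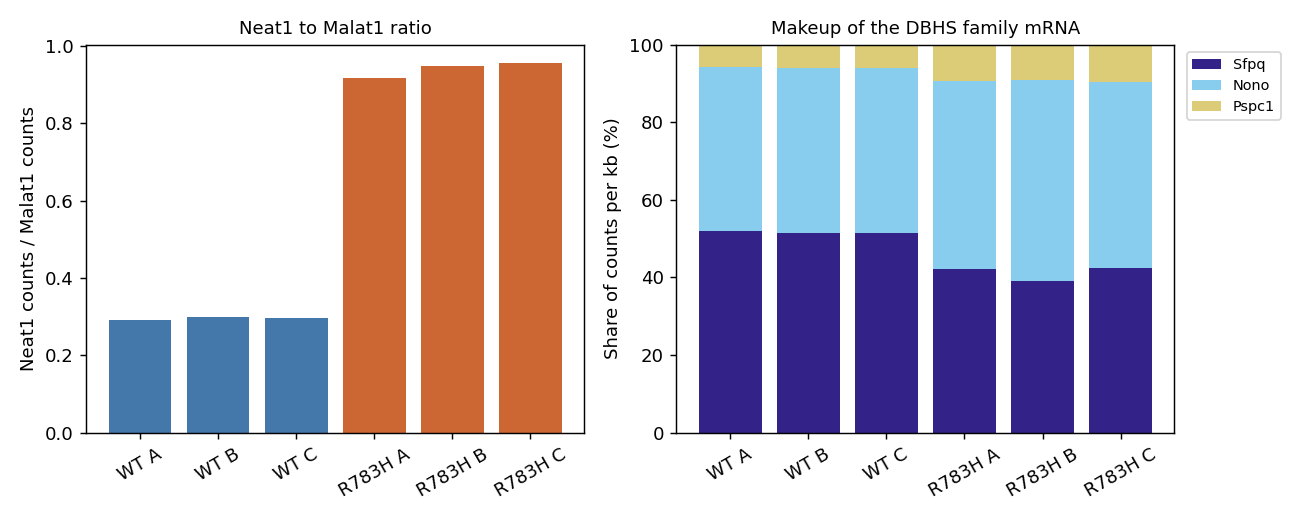
Left, Neat1 counts divided by Malat1 counts in each library (bars from 0); right, the shares of Sfpq, Nono and Pspc1 in their summed counts per kb, in percent. The ratio is 0.290 to 0.299 in WT and 0.917 to 0.955 in R783H, and the Sfpq share is 39.0% to 42.4% in R783H against 51.5% to 52.0% in WT.

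Among 444 tested long non-coding RNAs, Malat1 ranked 3 by mean CPM in WT and 4 in R783H, while Neat1 ranked 22 in WT and 5 in R783H. Of these 444 RNAs, 152 were called higher and 60 lower, against 33.5% and 30.9% of all 14199 tested genes. By log2 fold change, Neat1 ranked 5 and Malat1 ranked 187 from the top.

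Transcript length moved with the comparison, and both RNAs are long by their longest annotated transcripts (20771 bases for Neat1 and 6983 for Malat1). Genes in the longest 10% of transcripts (6792 bases or more) had a median log2 fold change of 0.31, and those in the shortest 10% had -0.17. These longest genes were also lowest in B among the R783H libraries. Their median log2 CPM relative to each gene's own mean was 0.19, 0.06 and 0.22 in R783H A, B and C. With an offset for length and GC content fitted in each library, the log2 fold change of Neat1 was 1.60 (SE 0.07) and that of Malat1 was 0.17 (SE 0.07). The Neat1 value rests on the length of the long isoform. The short isoform has 3004 bases, and reads of the isoforms cannot be told apart here. Of 34 tested replication-dependent histone genes, whose mRNAs carry no poly(A) tail, 25 were called lower and 1 higher, with a median of -0.90. Over all tested genes 30.9% were called lower and 33.5% higher. Of 8 primitive endoderm markers 6 were tested, and 3 were called higher and 0 lower, a share of 50% called against 64.5% of all tested genes. Their sum, without TMM, was 279 to 287 CPM in R783H against 134 to 145 CPM in WT. Most of that sum was the laminin gene Lama1 (265.4 ± 4.89 against 138.3 ± 6.16 CPM with TMM; SD, n = 3 each). The markers Sox7 and Foxa2 had at most 19 and 4 counts in a library. The part of untailed RNA and of these marker levels in the Neat1 and Malat1 differences was not tested.

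The 3 tested genes whose profile over the 6 libraries was nearest to that of Neat1 were Meg3, Ttn and Lrrc31, at a root mean square difference of 0.08, 0.12 and 0.14 in log2 CPM after centring each gene. Meg3, an imprinted nuclear non-coding RNA, stood at 123.4, 86.9 and 119.9 CPM in R783H A, B and C and at 26.9, 25.2 and 26.6 CPM in WT A, B and C. Ttn, which encodes the giant muscle protein titin, stood at 45.1, 33.4 and 47.8 CPM against 9.85, 11.4 and 11.6 CPM. Like Neat1, both were lowest in R783H B among the R783H libraries. The genes nearest to Malat1 were Epc2, Pnisr and Vps54, at differences of 0.06, 0.06 and 0.07, and these too were lowest in R783H B within their group. As the nearest genes were picked for likeness over the same 6 libraries, the shared low value in B and the similar difference between the groups are built into the choice. Malat1 itself ranked 1315 among 9113 genes in nearness to Neat1. Nearness spans both groups, so this rank takes in their unequal log2 fold changes (2.11 for Neat1 and 0.44 for Malat1). It does not measure how the RNAs vary together within a group.

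**Figure D3:**
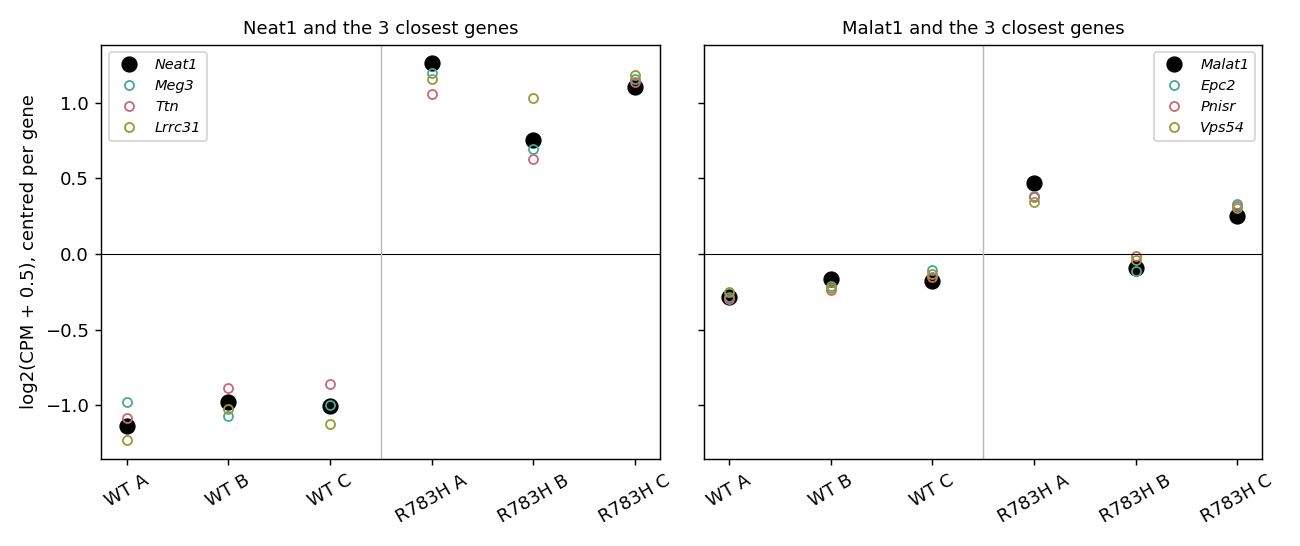
Log2(CPM + 0.5), centred on each gene's mean, in the 6 libraries for Neat1 (left) and Malat1 (right), each as filled points with the 3 nearest genes as open points. R783H B lies below A and C for every gene drawn, which the choice of genes by nearness over these libraries favours.

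Sfpq, Nono and Pspc1 form the DBHS family, proteins that pair with each other and bind Neat1 to build the core of the paraspeckle. Sfpq and Nono were lower in R783H and Pspc1 was higher. Sfpq (Entrez 71514, chr4:127020716-127051101) stood at 482.0, 443.9 and 482.5 CPM in R783H A, B and C and at 809.3, 794.6 and 775.1 CPM in WT A, B and C. The groups lay far apart, with a log2 fold change of -0.76 (SE 0.05), or 1.69-fold lower.

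Nono (Entrez 53610, chrX:101429560-101448593) stood at 408.5, 437.1 and 403.6 CPM in R783H A, B and C and at 486.7, 485.7 and 472.2 CPM in WT A, B and C. R783H B was the nearest to WT, still below every WT library. Its log2 fold change was -0.21 (SE 0.04), and -0.13 with library size alone in place of TMM. Pspc1 (Entrez 66645, chr14:56722441-56778318) stood at 128.8, 121.7 and 131.3 CPM in R783H A, B and C and at 106.6, 108.2 and 107.0 CPM in WT A, B and C. It was the single protein gene of the 6 with higher values in R783H, with a log2 fold change of 0.25 (SE 0.05), and of 0.15 under the length and GC offset.

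The makeup of DBHS mRNA therefore differed between the groups. Per kb of transcript, Sfpq made up 41.2 ± 1.88% of the summed counts of the family in R783H and 51.7 ± 0.254% in WT (SD, n = 3 each). Nono made up 49.4 ± 2.22% and 42.4 ± 0.159%, so per kb it was the most abundant of the family in R783H and Sfpq was in WT. This switch rests on the annotated lengths: in CPM, Sfpq stood above Nono in R783H A, B and C too. Pspc1 made up 9.40 ± 0.355% and 5.89 ± 0.114%. Summed over the family, R783H had 1013 ± 9.02 CPM and WT 1382 ± 24.8 CPM (SD, n = 3 each), a ratio of 0.733.

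Rbm14 and Hnrnpk encode proteins on which the long Neat1 isoform or the body it forms is known to depend. Rbm14 (Entrez 56275, chr19:4800566-4811634), whose protein has a prion-like domain, stood at 153.7, 165.4 and 156.0 CPM in R783H A, B and C and at 257.2, 252.7 and 249.2 CPM in WT A, B and C. The log2 fold change was -0.68 (SE 0.04), the second lowest among the 8 genes after Sfpq. Hnrnpk (Entrez 15387, chr13:58391132-58403343), whose protein favours the long isoform by hindering polyadenylation of the short one, stood at 341.6, 344.3 and 343.4 CPM in R783H A, B and C. In WT A, B and C it stood at 409.2, 398.2 and 404.2 CPM, and the log2 fold change was -0.24 (SE 0.04), or -0.15 with library size alone. Its R783H libraries were nearly equal, with a coefficient of variation of 0.399%, at percentile 0.702 of the genes of at least 50 CPM.

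Tardbp (Entrez 230908, chr4:148612382-148627084) encodes TDP-43, which is known in embryonic stem cells to favour polyadenylation of the short Neat1 isoform. It stood at 403.4, 370.4 and 407.7 CPM in R783H A, B and C and at 495.3, 503.8 and 538.1 CPM in WT A, B and C. The groups did not overlap, and the log2 fold change was -0.38 (SE 0.05). The length and GC offset took it to -0.66 (SE 0.03). Tardbp has a long annotated transcript of 7477 bases.

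Together the 6 protein genes had 1908 ± 22.4 CPM (R783H) and 2551 ± 11.6 CPM (WT; SD, n = 3 each). Neat1 reached 0.0728 ± 0.0121 CPM per CPM of these mRNAs in R783H and 0.0126 ± 0.000798 in WT. All 8 genes had groups without overlap, 3 higher and 5 lower in R783H, where 68.1% of all tested genes had such groups (35.0% higher and 33.1% lower). All 8 were also called by the fit, again 3 and 5, where 64.5% of all tested genes were called (33.5% higher and 30.9% lower). With library size alone 5673 genes were called higher and 3603 lower, against 4761 and 4391 with TMM. Since the genes were chosen with this comparison known, nothing is read from those counts. Their median log2 fold change was -0.22, against 0.03 over all tested genes.

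Per kb of the longest annotated transcript, the order of levels in WT was Sfpq (228.9 CPM per kb), Nono (187.9), Hnrnpk (136.0), Rbm14 (72.1), Tardbp (68.5), Pspc1 (26.1), Malat1 (15.7) and Neat1 (1.55). In WT, Rbm14 and Tardbp overlapped in their libraries, and no other neighbours in the order did. In R783H the order was Nono (162.5), Sfpq (135.5), Hnrnpk (115.5), Tardbp (52.7), Rbm14 (45.2), Pspc1 (30.9), Malat1 (21.2) and Neat1 (6.70), and no neighbours overlapped. The level of Neat1 depends on which isoform the reads came from. Divided by the 3004 bases of the short isoform it would be 10.7 ± 0.631 CPM per kb in WT and 46.3 ± 8.11 in R783H (SD, n = 3 each).

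Several of these genes share sequence with others, so their counts are uncertain to the extent that the counting split or dropped such reads. Exons of Neat1, Malat1, Sfpq, Hnrnpk, Tardbp and Rbm14 overlap those of other annotated genes, such as Rmi1 on the opposite strand of Hnrnpk and Masp2 on the opposite strand of Tardbp. On the same strand, Sfpq overlaps Gm12940, Rbm14 overlaps the protein-coding Gm21992, and Neat1 and Malat1 overlap genes annotated as miscellaneous RNA. The longest near-identical stretch was the 1743 bases that Tardbp shares with Masp2. Hnrnpk has near-identical stretches of up to 1378 bases in the processed pseudogene Gm7964, and Nono of up to 372 bases in Gm8806. Pspc1 had neither.

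Further paraspeckle proteins moved in both directions, and their called share was near that of all genes. Of 33 listed genes 32 were tested, and 15 fell, 6 rose and 11 were not called, a share of 65.6% called against 64.5% of all tested genes. The list median was -0.14, and 19 fell and 6 rose without R783H B. With library size alone 11 were called lower and 8 higher. Fam98a fell by 0.69 (SE 0.05) on the log2 scale. Zc3h6 (1.17, SE 0.19) and Fign (0.73, SE 0.21) rose, each at a mean of under 3 CPM in both groups, and Fign was no longer called with the length and GC offset (0.37, adjusted p = 0.109, edgeR's quasi-likelihood test). Nudt21 (-0.12, SE 0.07) and Cpsf6 (-0.15, SE 0.06), which form the cleavage factor that promotes the short Neat1 isoform, were not called; these are named outside the rule, for their known roles.

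The RNase P and tRNA-like 3′ end processing group holds subunits of the enzymes that cut and trim Malat1 and the long Neat1 isoform, and factors that act on such ends. Of its 14 genes, all tested, 12 fell and 0 rose, where 30.9% of all tested genes fell. The 2 others, Rpp21 and Rpp38, stood at 0.04 (SE 0.08) and -0.05 (SE 0.08). The median was -0.43. Rpph1, the RNA subunit of RNase P, stood at 0.333, 1.09 and 0.945 CPM in R783H A, B and C and at 12.5, 10.2 and 16.0 CPM in WT A, B and C (log2 fold change -4.03, SE 0.27). It has no poly(A) tail, and its large difference was known before the list was made. The protein subunits Rpp14 (-0.65, SE 0.05) and Pop1 (-0.57, SE 0.05) fell, as did Mettl16 (-0.63, SE 0.05), a methyltransferase that binds the Malat1 triple helix. With the length and GC offset 13 of these genes could be fitted, and 11 fell and 1 rose. Without R783H B the counts were again 12 and 0.

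Integrator, the complex that cleaves the 3′ ends of many non-coding RNAs and is known to favour the short Neat1 isoform, had 9 of 14 subunits lower, 0 higher and 5 not called, a share of 64.3% called against 64.5% of all tested genes. The median was -0.20. The largest of the called changes were in Ints13 (-0.86, SE 0.05), Ints11, the catalytic subunit (-0.58, SE 0.05), Ints5 (-0.51, SE 0.05) and Ints3 (-0.48, SE 0.05). Ints13 fell from 144.7 ± 4.18 to 80.0 ± 5.06 CPM (SD, n = 3 each). Without R783H B 11 subunits were lower and 0 higher, and with library size alone 6 were lower and 2 higher.

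Nuclear speckle proteins, the partners of Malat1, moved in both directions. Of 16 genes, all tested, 10 fell, 4 rose and 2 were not called, where 30.9% of all tested genes fell and 33.5% rose. The median was -0.21, and with library size alone 8 were called lower and 4 higher. The SR proteins, which bind exons during splicing, held the largest decreases, in Srsf2 (-0.69, SE 0.05), Srsf1 (-0.65, SE 0.06), Srsf7 (-0.54, SE 0.04) and Srsf3 (-0.50, SE 0.04). Srsf2 fell from 846.0 ± 45.1 to 525.5 ± 12.7 CPM (SD, n = 3 each). The 4 that rose were Srrm1 (0.25, SE 0.04), Srrm2 (0.26, SE 0.04), which helps to scaffold the speckle, and the SR protein kinases Clk1 (0.37, SE 0.08) and Clk4 (0.43, SE 0.08); these are named outside the rule, after their values were seen.

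Other nuclear long non-coding RNAs were mostly higher. Of 12 listed, 9 were tested, and 6 rose, 1 fell and 2 were not called, where 33.5% of all tested genes rose and 30.9% fell. The median was 1.02 against 0.29 over the 444 long non-coding RNAs. Among the longest 10% of transcripts, 59.9% were called higher and 13.1% lower. When fitted with the length and GC offset, 7 of the listed RNAs could be tested, and 5 rose and 1 fell. Meg3 rose by 2.07 (SE 0.12) on the log2 scale. Firre, an RNA of the X chromosome that organises chromatin, rose from 36.6 ± 1.10 to 93.4 ± 11.8 CPM (SD, n = 3 each; log2 fold change 1.35, SE 0.08). Xist rose by 1.20 (SE 0.14), from 1.94 ± 0.266 to 4.44 ± 0.181 CPM. Tsix, which is transcribed across Xist from the other strand, rose by 1.12 (SE 0.12), from 3.23 ± 0.348 to 7.02 ± 0.480 CPM. Tsix is named outside the rule, for this overlap. The use of strand in counting is not given in the sources used here. Miat, an RNA known from neurons, fell by 1.99 (SE 0.22), from 2.36 ± 0.0701 to 0.587 ± 0.173 CPM. Under the length and GC offset Meg3 was at 1.64, Firre at 1.18, Xist at 0.72 and Miat at -2.28.

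**Figure D4:**
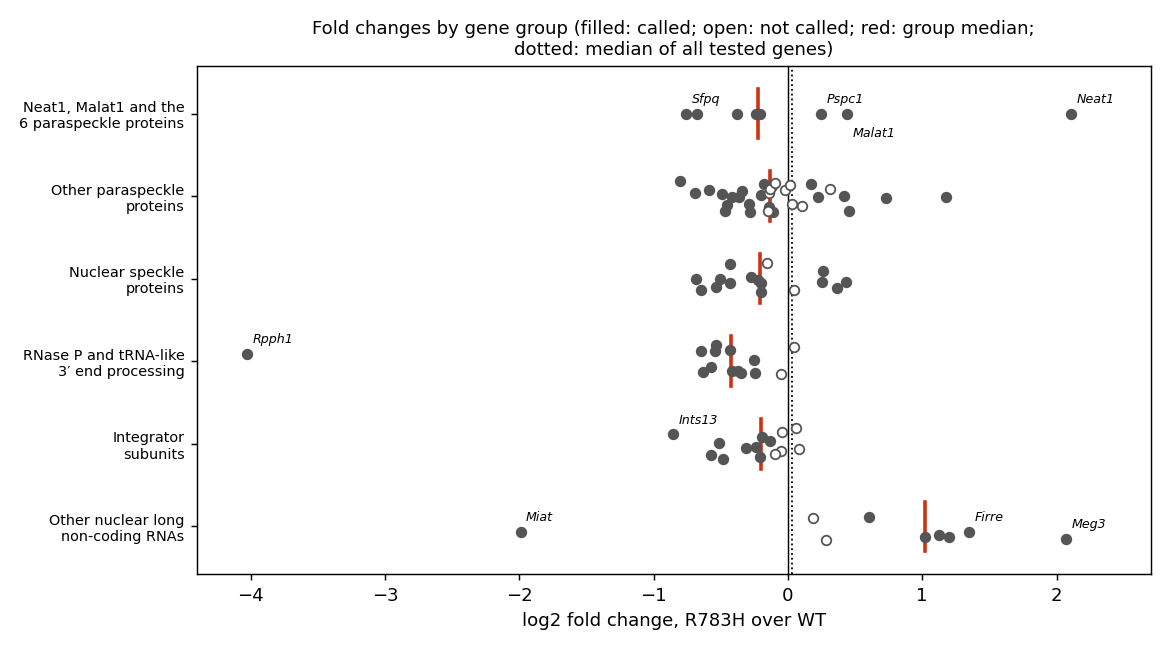
Log2 fold changes of single genes (points) in 6 gene groups, filled where called and open where not, with the group median in red and the median of all tested genes dotted. Neat1 (2.11) and Meg3 (2.07) lie at the far right and Rpph1 (-4.03) at the far left, while the RNase P and Integrator groups lie mostly below 0.

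Neat1 and Malat1 lie 22.0 kb apart, with no tested gene between them, and most of their neighbours were lower or not called. Of the 5 tested genes on each side, 6 fell, 1 rose and 3 were not called, with a median log2 fold change of -0.40. Over all tested genes 30.9% fell and 33.5% rose. Frmd8, whose annotated span begins 5.49 kb from Neat1, fell from 72.2 ± 5.83 to 52.5 ± 3.81 CPM (SD, n = 3 each; log2 fold change -0.46, SE 0.07).

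Farther out, Znrd2 fell by 1.39 (SE 0.06), Ehbp1l1 by 0.93 (SE 0.09), Fam89b by 0.83 (SE 0.10) and Dpf2 by 0.15 (SE 0.05) on the log2 scale. Dpf2 was no longer called with library size alone (-0.07, adjusted p = 0.166, edgeR's quasi-likelihood test). Slc25a45 (-1.22, SE 0.35) was called at fewer than 15 counts on average in either group. Cdc42ep2 rose by 1.51 (SE 0.17), from 1.39 ± 0.182 to 3.94 ± 0.559 CPM. Ltbp3 (0.34, SE 0.18) and Tigd3 (-0.33, SE 0.16) were not called. Over chromosome 19, 126 of 476 tested genes rose and 163 fell, with a median of -0.02.

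**Figure D5:**
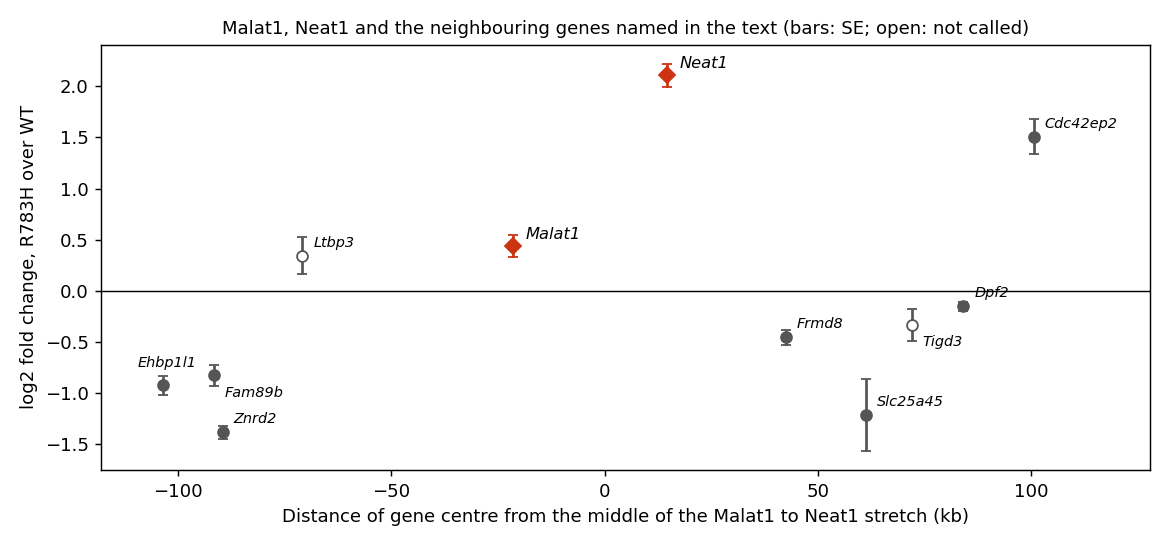
Log2 fold change (bars: SE) of Malat1, Neat1 (diamonds) and the neighbouring genes named in the text against the distance in kb from the middle of the stretch they span, with open points not called. Neat1 at 2.11 and Malat1 at 0.44 stand above 0, and Frmd8, the nearest gene drawn beyond Neat1, lies at -0.46.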

How the data were processed

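The authors deposited 1 table of raw read counts per Entrez gene, with a column for each of the 6 libraries. Per the submitters' processing notes the build was mm10, and CASAVA 1.4, HISAT2 and SAMtools are named; the counting tool, annotation and use of strand are not given in the sources used here. Symbols came from RefSeq genes on GRCm38.p6 (25275 of 27179 identifiers), and transcripts from GENCODE M21, with length and GC content for 92.0% of tested genes.

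In R 4.3.3, genes were kept with filterByExpr (minimum count 10, minimum total 15), scaled by TMM and tested with edgeR 4.0.16's quasi-likelihood test on group alone, with Benjamini-Hochberg adjustment over 14199 genes. A gene is called at an adjusted p under 0.05. The SE is the log2 fold change divided by the square root of F. The steps were tested on simulated data in which few genes were changed, as many raised as lowered. That setting cannot show how the scaling and calls behave where most genes are called, as here. BLAST at 98% identity over 100 bases found near-identical stretches.

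Members, lists, tests and alternatives were chosen with earlier results of these data known. Named genes were the 8 members, Trim71, from each list other than markers at most 4 called genes, ranked by absolute change, that averaged at least 50 counts in the higher group, 5 tested genes on each side of the locus, and the 3 nearest in profile of at least 10 CPM. Some genes that this rule names are not reported here. Markers of mesoderm (3 of 5 tested called lower, 0 higher) and neural cells (2 of 5 higher, 2 lower) were also counted. Those are shares of 60% and 80% called, against 64.5% of all tested genes (33.5% higher and 30.9% lower). Per-gene precision rests on 3 libraries a group and totals of 20894277 to 29079670 counts.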

Additional observations from a re-analysis of the deposited data

How the results depend on the processing

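No direction of the 8 genes changed under RLE factors, library size alone, other filters, DESeq2 1.42.0, a replicate block, the length and GC offset or leaving out a library. Log2 fold changes that moved by more than the replicate SD were as follows. With the length and GC offset Neat1, taken at the length of its long isoform, was at 1.60, Malat1 at 0.17, Pspc1 at 0.15, Hnrnpk at -0.26 and Tardbp at -0.66. With library size alone Sfpq was at -0.67, Nono at -0.13, Pspc1 at 0.33, Hnrnpk at -0.15, Tardbp at -0.30 and Rbm14 at -0.59. With RLE factors and with DESeq2 Hnrnpk was at -0.26. Without R783H B Nono was at -0.27, Hnrnpk at -0.26 and Rbm14 at -0.73. The cause was not tested. Leaving out each library gave 1.98 to 2.21 for Neat1, 0.29 to 0.55 for Malat1, -0.79 to -0.74 for Sfpq, -0.27 to -0.20 for Nono and 0.21 to 0.25 for Pspc1. It gave -0.26 to -0.23 for Hnrnpk, -0.42 to -0.35 for Tardbp and -0.73 to -0.67 for Rbm14. The Neat1 to Malat1 ratio ran from 0.933 to 0.952 in R783H and from 0.293 to 0.297 in WT.

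Over these alternatives the number of called genes ran from 8161 to 9882 (9152 as reported), that among further paraspeckle proteins from 18 to 25 (21), nuclear speckle proteins from 12 to 15 (14), Integrator subunits from 8 to 11 (9) and other nuclear RNAs from 6 to 8 (7). The RNase P group stayed at 12 called. Same-lettered libraries did not deviate together (r of -0.07, 0.01 and 0.09 over genes), so the letters were not taken as pairs. With the replicate block 9260 genes were called, and Neat1 was at 2.09 and Malat1 at 0.42.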
